A study of Mus musculus with 768 samples.

Results

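The collagens, laminins and integrins were described here as 83 genes of the 52636 listed in the deposited tables: 44 collagen chains, 11 laminin chains and 28 integrin subunits. They were chosen by symbol alone (Col, Lama, Lamb, Lamc, Itga and Itgb genes), by a rule that uses no measured value. Itgam is listed under 2 identifiers, and both were kept. Of the 83, 60 had enough reads for testing (32 collagens, 8 laminins and 20 integrins). The other 23 were low or absent, and 5 of them had no read in any retained cell (Col6a4, Col6a5, Itgad, Itgb2l and the second Itgam entry).

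Collagens are secreted as trimers that form fibrils, networks or fibril-associated proteins. Laminins are trimers of an alpha, a beta and a gamma chain and lie with type IV collagen in basement membranes. Integrins are receptors of an alpha and a beta subunit that bind these proteins and link them to the cytoskeleton. In the cochlea, the greater epithelial ridge (GER), the columnar epithelium on the inner side of the developing organ of Corti, secretes the tectorial membrane, whose collagens are of types II, IX and XI.

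The study followed GER cells of postnatal day 2 mice as they formed organoids. All cells carried the same alleles, given in the labels as Fgfr3-CreERT2/Ai14-tdTomato/Sox2-GFP, and were enriched by flow cytometry before seeding. They were kept in a DMEM/F-12 medium with N-2, B-27 and ampicillin, 3 growth factors (EGF, IGF1 and FGF2), valproic acid, CHIR99021, which inhibits GSK3, 2-phospho-L-ascorbic acid and an inhibitor of the TGFβ receptor, and all days shared these agents. Organoids were harvested on culture day 1, 3 or 7, dissociated with trypsin, and picked by hand as single cells for SmartSeq2, which copies whole transcripts and adds no molecular identifiers. The series has no untreated or uncultured group, so each comparison is between days of culture. Whether a Cre inducer was given, and how many animals a culture came from, is not given in the sources used here.

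Each of the 768 cells has a day and a replicate number, and the replicate was taken as a culture: 3 for day 1, 3 for day 3 and 5 for day 7. Because the labels do not say that cultures came from separate animals, p-values measure the spread between these cultures, which may be technical. After filtering, 711 cells remained (182, 228 and 301), with 26391412 to 72483565 reads on genes per culture. Values below are CPM, the reads summed over the cells of a culture and scaled to a common library total. In such sums, fewer cells with a transcript and less transcript per cell cannot be told apart, and values in single cells are given further on. A gene was called at an edgeR adjusted p under 0.05 over 17466 genes.

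The epithelial genes Epcam or Cdh1 had a read in 99.7% of retained cells. The 6 epithelial markers summed to 3522 to 5506 CPM on day 1, 3595 to 5498 CPM on day 3 and 1877 to 2965 CPM on day 7, the 5 neuron markers to 59.0 to 135, 31.99 to 50.0 and 11.2 to 29.1 CPM, and the 5 hair cell markers to 0 to 20.5, 10.4 to 89.5 and 0 to 4.11 CPM. The 5 endothelial markers summed to at most 0.261 CPM in a day 1 culture and 0.163 CPM in a day 7 culture, with Pecam1, Kdr and Tie1 at 0 in all 11 cultures. On day 3 they reached 24.9 CPM in culture 3, nearly all of it Emcn at 24.4 CPM. The melanocyte markers Dct, Tyr and Mlana were at 0 throughout. Pmel, also on that list, was at 2.16 to 5.74 CPM on day 1, 0.0157 to 4.87 CPM on day 3 and 0 to 1.84 CPM on day 7. The 6 immune markers summed to at most 9.03 CPM. The 10 mesenchyme markers summed to 1418 to 1516 CPM on day 1, 1063 to 1458 CPM on day 3 and 594 to 2867 CPM on day 7. Dcn and Lum made up most of the sum, at 185 to 1058 CPM and 377 to 1793 CPM over the 11 cultures. They had a read in 648 and 679 of the 711 retained cells, so the sum does not measure a separate group of mesenchyme cells. On day 1, Pdgfra, Twist2, Prrx1, Tbx18 and Otor were at 0 in all cultures, while Pdgfrb was at 6.94, 0 and 6.70 CPM and Pou3f4 at 0.639, 0.0948 and 0 CPM. Pdgfrb averaged 4.55, 0.259 and 1.04 CPM on days 1, 3 and 7. Twist1 was at most 0.0474 CPM on day 1, at 0.0586 to 1.63 CPM on day 3 and at 2.68 to 11.1 CPM on day 7. Prrx1 was at 0 on day 1, at 0.204 to 4.91 CPM on day 3 and at 0.559 to 13.2 CPM on day 7. The part of these cells or genes in the results below was not tested, beyond leaving out cells with mesenchyme genes, all of them of day 3, or with hair cell genes.

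Promoter sequence from RefSeq (GRCm38.p6) was at hand for 59 members, in 65 windows of 250 bases upstream of a start site. Those of 4 genes are shown because their genes had different values by day: Col9a1 and Col11a2 were low on day 3 and higher on day 7, Col11a1 encodes a chain of the same trimer as Col11a2 and did not pass the test, and Col6a1 was close to absent by day 7. Each is written 5′ to 3′ on the strand of its gene, and transcribed bases of the annotation are left out. Capitals mark a GC box (GGGCGG or its complement CCGCCC) or a TATA box (TATAAA or TTTATA).
Col9a1, chr1:24177360-24177609, plus strand: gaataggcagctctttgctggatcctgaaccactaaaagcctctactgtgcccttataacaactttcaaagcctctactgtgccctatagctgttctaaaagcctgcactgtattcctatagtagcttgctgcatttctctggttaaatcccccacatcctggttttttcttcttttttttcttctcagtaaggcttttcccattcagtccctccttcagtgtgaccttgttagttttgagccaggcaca
Col11a2, chr17:34038888-34039137, plus strand: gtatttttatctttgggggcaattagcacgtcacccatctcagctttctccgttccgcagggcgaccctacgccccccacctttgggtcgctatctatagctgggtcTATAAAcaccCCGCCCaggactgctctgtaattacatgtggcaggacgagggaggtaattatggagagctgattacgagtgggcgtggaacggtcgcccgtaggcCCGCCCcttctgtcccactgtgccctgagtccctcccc
Col11a1, chr3:114030290-114030539, plus strand: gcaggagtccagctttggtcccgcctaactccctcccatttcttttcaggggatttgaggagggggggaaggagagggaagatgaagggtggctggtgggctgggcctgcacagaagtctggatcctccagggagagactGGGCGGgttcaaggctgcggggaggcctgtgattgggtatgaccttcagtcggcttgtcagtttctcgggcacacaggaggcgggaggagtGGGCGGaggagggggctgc
Col6a1, chr10:76726169-76726294, minus strand: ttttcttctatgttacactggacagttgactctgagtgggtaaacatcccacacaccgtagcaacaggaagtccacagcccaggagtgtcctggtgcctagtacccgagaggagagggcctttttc
The Col9a1 window shown holds neither motif and has 43.6% GC. Another Col9a1 window, chr1:24194953-24195202, is not shown and also holds neither, at 56.0% GC. The Col6a1 window holds neither motif, at 56.0% GC over its 250 bases, transcribed ones included. The windows of Col11a2 and Col11a1 hold 2 GC boxes each, and that of Col11a2 also a TATA box, at 57.6% and 62.4% GC. A GC box lies in 31 of the 65 member windows and in 32.7% of 32851 promoters, and a TATA box in 5 of 65 and in 12.4%, both strands counted. A match is a run of letters and says nothing of binding.

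The 3 families took a small share of the reads, and that of the collagens was highest on day 1. Collagens held 0.451% ± 0.0791 of the reads on genes in the 3 day 1 cultures (mean and SD), 0.165% ± 0.0253 in the 3 day 3 cultures and 0.220% ± 0.0396 in the 5 day 7 cultures. The collagen shares of the day 1 cultures lay between 0.404% and 0.542%, above every later culture, the highest of which had 0.264%. Integrins held 0.103% ± 0.0200, 0.0889% ± 0.0341 and 0.0919% ± 0.0149 in the same order, with overlap between all days. Laminins held 0.0661% ± 0.0246, 0.0505% ± 0.0220 and 0.0344% ± 0.00647, and day 7 stayed below day 1 in every culture. The 6 chains of collagens II, IX and XI together made up 80.1% ± 1.43, 71.5% ± 4.72 and 74.4% ± 3.52 of the collagen reads on days 1, 3 and 7. Col2a1 alone made up 43.0% ± 2.57, 40.4% ± 2.77 and 30.1% ± 7.49 of them.

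Levels of different genes were compared per length, as CPM per kilobase of exon of the GENCODE M21 models. On day 1 the order was led by Col2a1 (208 ± 40.1), Col9a3 (123 ± 9.69), Col9a1 (122 ± 6.73) and Col9a2 (103 ± 7.84), and Col9a3 and Col9a1 did not differ beyond their spread. On day 3, Itgb1, the common beta subunit of the laminin and collagen receptors, stood at 74.2 ± 48.5 and Col2a1 at 73.0 ± 7.57. On day 7, Col9a1 led with 88.1 ± 36.3, ahead of Col2a1 with 70.6 ± 15.8 and Itgb1 with 60.7 ± 13.0, and these ranges overlapped. Among laminins on day 7, Lamb1 was at 10.9 ± 2.76 CPM per kilobase and Lamb2 at 8.93 ± 4.37, which overlapped, and Lamb3 averaged 0.826 over the 11 cultures. The reads of Lama3 numbered 3, 0 and 20 on days 1, 3 and 7.

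**Figure D1:**
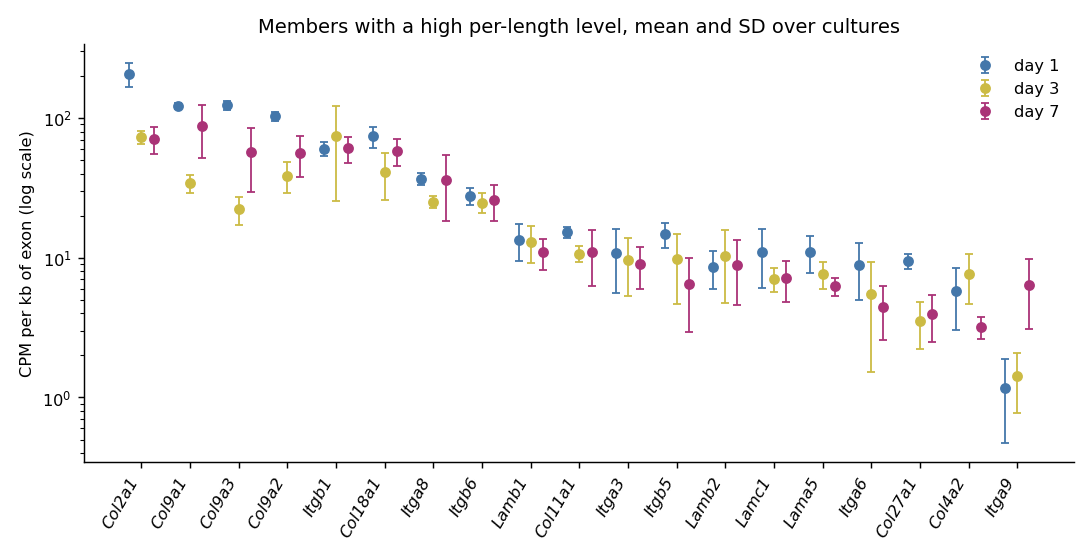
Level of 19 members with a high mean level per length, in CPM per kilobase of exon on a log axis, as the mean (point) and SD (bar) over 3 cultures of day 1, 3 of day 3 and 5 of day 7. Col2a1 leads on day 1 at 208, and Itga9 is the 1 gene of the 19 whose day 7 point lies far above both other days, at 6.42.

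The first comparison, day 3 against day 1, asked what changed as cells began to form organoids. The collagens of the tectorial membrane were lower in every day 3 culture than in any day 1 culture, but no member passed the edgeR threshold. Col2a1, the fibrillar collagen of type II (chr15:97975602-98004695), was at 2348, 1722 and 1689 CPM in the 3 day 1 cultures and at 744, 678 and 604 CPM on day 3. Its log2 fold change was -1.51 ± 0.24 (SE), with an edgeR adjusted p of 0.0757. Col9a1, the alpha 1 chain of the fibril-associated collagen IX (chr1:24177610-24252684), was at 642, 636 and 580.2 CPM on day 1 and at 154, 203 and 165 CPM on day 3. Neither gene showed overlap between the days, and the log2 fold change of Col9a1 was -1.83 ± 0.32 with an edgeR adjusted p of 0.0850.

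Col9a3 (chr2:180597790-180622189), whose exons overlap Tcfl5 on the other strand over 6.1% of their length, was at 489, 504 and 433 CPM on day 1 and at 80.5, 69.6 and 106 CPM on day 3, a log2 fold change of -2.48 ± 0.39 (edgeR adjusted p of 0.0757). Col9a2 (chr4:121039385-121055322) was at 293, 341 and 323 CPM and then at 144, 86.7 and 128 CPM, with -1.41 ± 0.29 (edgeR adjusted p of 0.135). The chains of collagen XI, a minor fibrillar collagen that is built into type II fibrils, parted from each other. Col11a2 (chr17:34039437-34066685) was at 34.0, 26.2 and 27.6 CPM on day 1 and at 2.15, 2.23 and 2.45 CPM on day 3, with -3.68 ± 0.65 (edgeR adjusted p of 0.0850). Col11a1 (chr3:114030540-114220718) was at 214, 180.0 and 190.4 CPM and then at 129, 158 and 122 CPM, with -0.51 ± 0.32 (edgeR adjusted p of 0.699). The difference between the fold changes of Col11a1 and Col11a2 was not tested.

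A deposited table may mark a batch. As Col2a1, Col9a1, Col9a3 and Col11a2 did not overlap between days 1 and 3, the same direction within each table follows. It is no further support, and the sizes are given as a description. In the first table, with culture 1 of either day, the log2 fold changes of Col2a1, Col9a1, Col9a3 and Col11a2 were -1.70, -2.11, -2.65 and -4.03. With 1 culture per day, these are effect sizes only and do not replicate the second table as a test. In the second table, with cultures 2 and 3 of either day, they were -1.43, -1.75, -2.43 and -3.54, and each had an edgeR adjusted p under 0.05 in that fit (0.0297 to 0.0420). Leaving out 1 day 7 culture, whose spread enters the same fit, also brought some of them past the threshold: Col2a1 and Col9a3 without culture 4 (both 0.0227), and Col9a1 and Col9a3 without culture 2 (both 0.0327). Without day 3 culture 3, the edgeR adjusted p values of these 4 genes were 0.285 to 0.357. The 7 markers of the GER and the tectorial membrane summed to 9456 to 13701 CPM on day 1, 3787 to 7485 CPM on day 3 and 2159 to 4066 CPM on day 7, with Tectb averaging 8308, 3622 and 692 CPM. They did not all move one way: Otoa averaged 89.5, 186 and 57.4 CPM, Otogl 30.2, 13.9 and 36.2 CPM and Fgf10 312, 238 and 290.4 CPM, and Ceacam16 was at 0 on days 3 and 7. Their part in the collagen values was not tested.

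**Figure D2:**
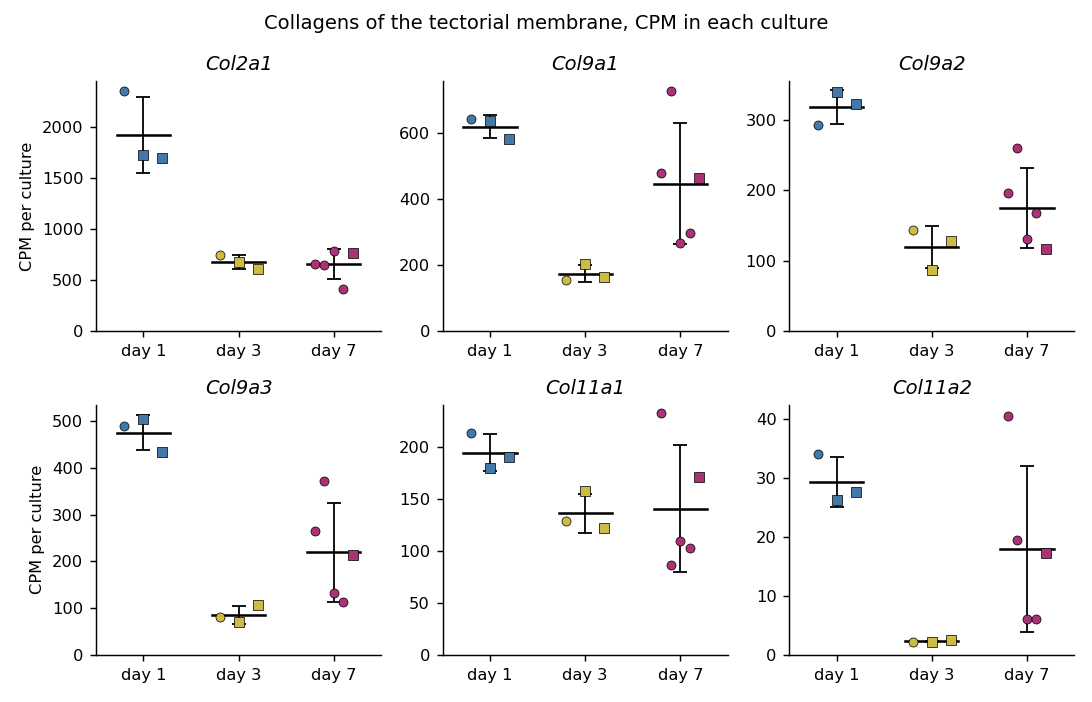
CPM of the 6 tectorial membrane collagen genes in each culture (circles, first deposited table; squares, second), with the mean (line) and SD (bar) per day; each vertical axis starts at 0. All day 3 points lie below all day 1 points in the 6 panels, and for Col9a1, Col9a3 and Col11a2 all day 7 points lie above all day 3 points.

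Across the families, 0 of the 60 tested members were called for day 3 against day 1 by edgeR, where 0.0115% of all genes were. At an unadjusted p under 0.05, 13 members were lower, all of them collagens, and 0 were higher, beside 3.57% of all genes lower and 5.69% higher. No overlap between the cultures of the 2 days was seen for 19 members that were lower (16 collagens and 3 integrins), beside 8.11% of all genes, and for 1 that was higher, the collagen receptor subunit Itga1 (named after its values were seen), beside 9.88%. DESeq2 called 7 members lower and 0 higher, beside 0.561% and 0.922% of all genes: Col2a1, Col9a1, Col9a2, Col9a3, Col11a2, Col27a1 and Col6a1, with adjusted p values of 1.18e-08 to 0.00490. The median log2 fold change was -1.46 for the 32 tested collagens, -0.28 for the 8 laminins and -0.39 for the 20 integrins, and 0.018 for all genes tested. The 8 fibrillar and the 8 fibril-associated collagens that were tested all had negative values, with medians of -1.56 and -2.03. Of the 5 tested type IV collagens, 4 had positive values, with a median of 0.19 and standard errors of 0.38 to 1.86, and the difference from the other groups was not tested.

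**Figure D3:**
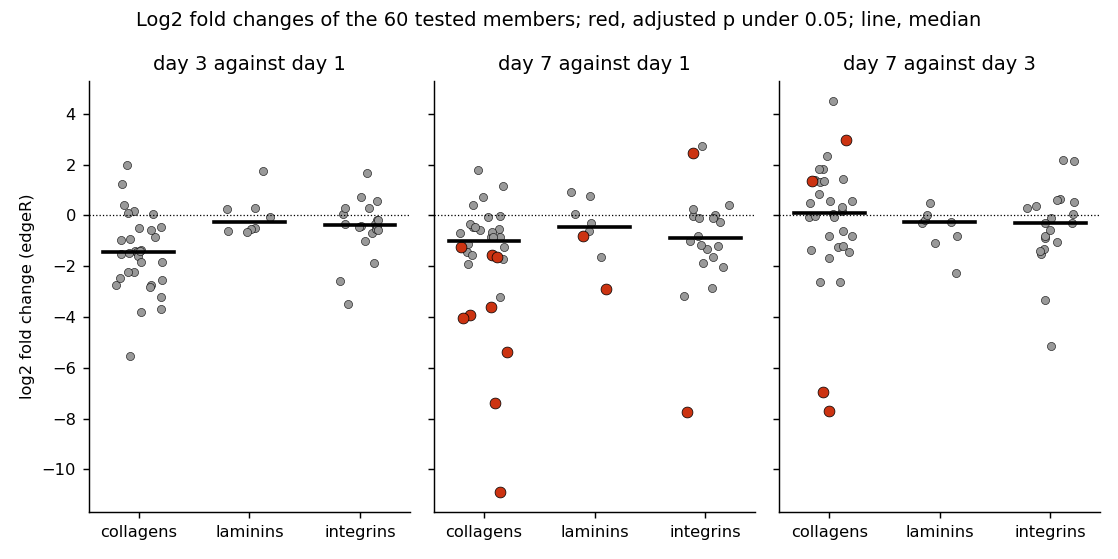
Log2 fold change of each of the 60 tested members in the 3 comparisons, by family, with the median as a black line; red points were called by edgeR. The collagen median lies at -1.46 for day 3 against day 1, at -0.99 for day 7 against day 1 and at 0.11 for day 7 against day 3, and no point is red in the first panel.

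For day 7 against day 1, 12 members were called lower and 1 higher, beside 3.56% and 3.55% of all genes tested. The 12 were 9 collagens, 2 laminin chains, Lama5 among them, and the integrin Itgb3, and the 1 that rose was the integrin Itga9. No overlap between the cultures was seen for 19 lower and 1 higher member, beside 9.06% and 8.71% of all genes. The median log2 fold change was -0.99 for collagens, -0.46 for laminins and -0.90 for integrins, and 0.003 for all genes.

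Of the fibrillar collagens, 5 of 8 tested fell, beside 3.56% of all genes tested. Col2a1 stayed low, at 653, 651, 781, 416 and 763 CPM in the 5 day 7 cultures against a day 1 mean of 1919.7 ± 371 CPM (SD, n = 3), with a log2 fold change of -1.56 ± 0.20 and an edgeR adjusted p of 0.00168. Col27a1, a fibrillar collagen of cartilage (chr4:63214004-63334991), was at 137, 108 and 125 CPM on day 1 and at 49.6, 40.8, 44.5, 38.4 and 85.1 CPM on day 7, where culture 5 stood apart (-1.25 ± 0.29, edgeR adjusted p of 0.0259). Col5a1 and Col5a3 encode chains of collagen V, which regulates the width of fibrils. Col5a1 went from 28.3, 14.5 and 15.1 CPM to 8.92, 7.03, 4.06, 2.33 and 8.37 CPM, with no overlap (-1.65 ± 0.45, edgeR adjusted p of 0.0455). Col5a3 went from 14.3, 10.9 and 20.1 CPM to 0.713, 0.759, 1.97, 1.58 and 0 CPM (-3.91 ± 1.02, edgeR adjusted p of 0.0389).

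The chains of collagen I, the main collagen of connective tissue, were low throughout. Col1a2 went from 18.0, 3.87 and 6.17 CPM on day 1 to at most 0.614 CPM on day 7 (-5.37 ± 1.38, edgeR adjusted p of 0.0352), while Col1a1 lay between 0.568 and 2.12 CPM on day 1 and between 0.231 and 2.01 CPM on day 7. Col3a1, a fibroblast collagen, was at 0 in 10 cultures and at 11.3 CPM in day 3 culture 3, where its 583 reads lay in 2 cells. That culture also had Tbx18 at 12.8 CPM and Otor at 56.2 CPM, markers of the mesenchyme around the otic epithelium. Leaving out cells that held at least 2 of 6 such mesenchyme genes took 4 cells from day 3 and 0 from days 1 and 7. It cannot show the part of such cells in day 7 against day 1, where it acts only through the shared fit. In that setting 11 of the 13 calls for day 7 against day 1 held. Those for Col1a2 and Col6a2 did not (edgeR adjusted p of 0.0534 and 0.0522), with log2 fold changes still at -5.37 and -4.02.

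Collagen VI forms beaded filaments of 3 chains, and Col6a1 had the largest fold among the called members. Col6a1 (chr10:76708792-76726168) was at 33.0, 15.6 and 9.28 CPM on day 1, at 4.47, 0.899 and 0.816 CPM on day 3, and at 0 in 3 and at most 0.0181 CPM in the other 2 of the day 7 cultures. Its reads numbered 2367 on day 1 and 2 on day 7, a ratio of levels of 2486 (95% counting interval 688 to 20543), with an edgeR adjusted p of 0.000282. The days did not overlap, and the call held within each deposited table (0.0202 and 0.0271). Col6a2 was at 41.8, 30.8 and 24.2 CPM on day 1 and at 3.28, 1.55, 0.145, 0.0589 and 4.87 CPM on day 7 (-4.02 ± 0.97, edgeR adjusted p of 0.0288). Col6a3, the third common chain, numbered 0, 8 and 36 reads on days 1, 3 and 7.

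Col12a1, which coats collagen I fibrils, went from 27.0, 6.29 and 9.92 CPM to 0.341, 0.0660, 0.217, 0.957 and 4.18 CPM, with culture 5 highest (-3.62 ± 1.00, edgeR adjusted p of 0.0470). Col13a1, a collagen that spans the cell membrane, had 361 reads on day 1 and 3 on day 7, all 3 in culture 3, a ratio of 253 (95% counting interval 85.8 to 1232, edgeR adjusted p of 0.0106). Its day 1 values were 1.60, 4.38 and 1.10 CPM, and its reads lay in few cells, as given further on.

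Among laminins, Lama5, the alpha chain of mature epithelial basement membranes, went from 164, 91.3 and 119 CPM to 57.8, 68.1, 84.8, 77.3 and 66.9 CPM (-0.82 ± 0.22, edgeR adjusted p of 0.0407). Its usual partners did not pass: Lamb1 averaged 134 ± 39.5 CPM on day 1 and 108 ± 27.3 CPM on day 7, Lamb2 52.3 ± 15.8 and 54.3 ± 26.6 CPM, and Lamc1 91.1 ± 40.9 and 59.0 ± 19.3 CPM.

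Of the 20 tested integrins, 1 fell and 1 rose by day 7 against day 1, counts near the 3.56% and 3.55% of all genes tested. The most abundant integrins were not called. Itgb1 was at 261, 214 and 265 CPM on day 1 and between 178 and 308 CPM on day 7, and its highest value, 530.0 CPM, was in day 3 culture 1, where Itgb4, Itga6 and Lamb2 were also highest among the day 3 cultures. Itga8, a receptor of nephronectin and other RGD proteins that is known from the cochlear epithelium, was at 292, 281 and 242 CPM on day 1 and ranged from 127 to 427 CPM on day 7. Itgb6, an epithelial subunit that pairs with Itgav, averaged 198 ± 27.9, 177 ± 28.6 and 183 ± 51.8 CPM on days 1, 3 and 7. Per kilobase of exon, Itgb6 averaged 26.1 CPM and Itgav 1.13 CPM over the 11 cultures.

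Itga6 and Itgb4 form the receptor of hemidesmosomes. Itga6 averaged 79.9 ± 34.6 CPM on day 1 and 39.8 ± 16.6 CPM on day 7 (edgeR adjusted p of 0.187), and Itgb4 17.5 ± 7.10 and 16.1 ± 8.08 CPM (0.924 by the same test). Itga9, a receptor of tenascin C and other matrix proteins (chr9:118606690-118901003), was the exception in direction. It was at 14.8, 8.33 and 4.01 CPM on day 1, at 15.0, 5.41 and 12.4 CPM on day 3 and at 65.1, 35.5, 83.8, 44.3 and 17.9 CPM on day 7. All day 7 cultures were above all earlier ones, with a log2 fold change of 2.44 ± 0.57 against day 1 (edgeR adjusted p of 0.0250). Within the tables it was 1.91 and 1.53, and neither passed the threshold alone (0.252 and 0.371). Itgb3, the beta subunit of the vitronectin receptor, had 211 reads on day 1 and 1 on day 7, a ratio of 443 (95% counting interval 78.7 to 17591, edgeR adjusted p of 0.00919). Its reads lay in few cells, as given further on.

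**Figure D4:**
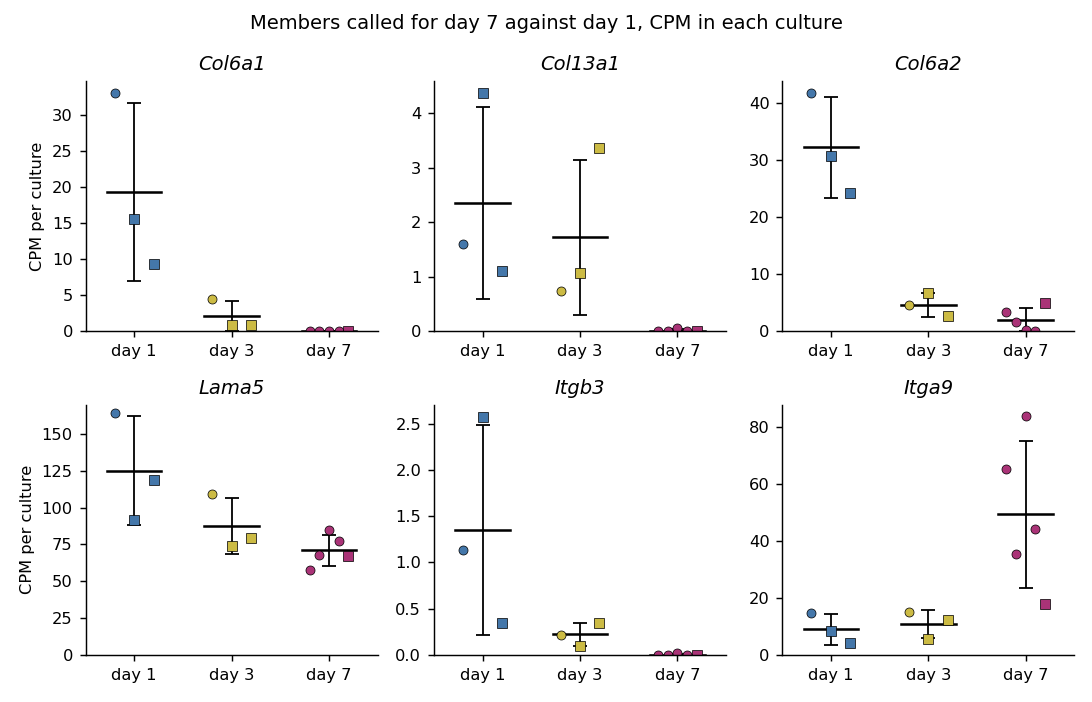
CPM in each culture of 6 of the 13 members called for day 7 against day 1 (circles, first deposited table; squares, second), with the mean (line) and SD (bar, cut at 0) per day; axes start at 0 and differ between panels. The day 7 points of Col6a1, Col13a1 and Itgb3 lie at or next to 0, those of Col6a2 between 0.0589 and 4.87, and only Itga9 rises, to between 17.9 and 83.8.

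The calls for Col2a1, Col6a1, Col13a1 and Itgb3 held when any 1 culture was left out, with edgeR adjusted p values of at most 0.0464. Those of 8 other members did not hold throughout. The call for Itga9 was lost without day 1 culture 2, day 1 culture 3 or day 7 culture 3 (adjusted p of 0.0547 to 0.0882 in edgeR), and that for Col6a2 without any 1 of the day 1 cultures or day 7 culture 2 (0.0547 to 0.0916). Col27a1 and Col1a2 lost it without any 1 of the day 1 cultures or day 7 culture 4, and also without day 7 culture 2 (Col27a1, 0.0510 to 0.0937) or day 7 culture 3 (Col1a2, 0.0544 to 0.155). Lama5 lost it without day 1 cultures 1 or 3, day 3 culture 3 or day 7 cultures 1, 2 or 5 (0.0604 to 0.152). Col5a1 lost it without any 1 of the day 1 cultures, day 3 cultures 2 or 3 or day 7 cultures 2, 3 or 4 (0.0585 to 0.192), Col5a3 without any 1 of the day 1 cultures, day 3 culture 2 or day 7 cultures 1 to 4 (0.0503 to 0.114), and Col12a1 without any culture other than day 7 culture 5 (0.0571 to 0.195). The count of called members was 13 with all cultures, and 6, 6 and 5 without day 1 cultures 1, 2 and 3 in turn and 8 without day 7 culture 3.

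Between day 3 and day 7, 2 members fell and 2 rose, beside 0.784% and 0.183% of all genes tested. No overlap between the cultures was seen for 9 lower and 5 higher members, beside 5.14% and 2.99% of all genes. Col6a1 fell further (373 reads on day 3 and 2 on day 7, a ratio of 292 with a 95% counting interval of 80.3 to 2422, edgeR adjusted p of 0.00302), and so did Col13a1 (275 and 3 reads, a ratio of 144 with an interval of 48.6 to 701, edgeR adjusted p of 0.0392). Col11a2 rose to 40.5, 19.5, 6.07, 6.07 and 17.3 CPM, with cultures 3 and 4 lowest yet above day 3 (2.97 ± 0.61, edgeR adjusted p of 0.0410). Col9a1 rose to 478, 728, 266, 298 and 463 CPM (1.36 ± 0.29, edgeR adjusted p of 0.0497). Of these 4, the call for Col6a1 alone held without each culture in turn. Col9a1 and Col11a2 lost it without any 1 of the day 1 or day 3 cultures or day 7 cultures 1, 2 or 5 (0.0548 to 0.198 over both genes), and Col13a1 without any culture other than day 7 culture 3 (0.0548 to 0.150). Without any 1 of the day 1 or day 3 cultures or day 7 cultures 1 or 2, the count of called members was 1. Without 14 cells that held at least 2 hair cell genes it was 2, as Col9a1 and Col13a1 were lost (0.0662 and 0.05005), and without the 4 cells with mesenchyme genes it was 3, as Col9a1 was lost (0.0537).

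The other tectorial membrane chains divided. Col9a3 was at 264, 373, 133, 113 and 213 CPM on day 7, above every day 3 culture and below every day 1 culture, and it passed neither test (0.100 for day 3 and 0.0543 for day 1 as edgeR adjusted p). Col9a2 was at 197, 260.4, 131, 168 and 118 CPM, below day 1 throughout (edgeR adjusted p of 0.0551) and overlapping with day 3. Col11a1 ranged from 86.6 to 233 CPM and overlapped with both days. Col2a1 was level with day 3, with a log2 fold change of -0.05 ± 0.21 (edgeR adjusted p of 0.971). Col16a1, a fibril-associated collagen named here after its values were seen, had a similar course, with 21.6, 26.0 and 18.8 CPM on day 1, 8.55, 7.58 and 9.17 CPM on day 3 and 15.9 to 59.4 CPM on day 7 (edgeR adjusted p of 0.0776 for day 7 against day 3). The comparisons share the cultures of a day, so a low day 3 enters both the fall and the rise.

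Type IV collagens, the network of basement membranes, had negative log2 fold changes for day 7 against day 3 in all 5 tested members, with a median of -1.25 beside 0.01 over all genes, and edgeR called 0 of them, with 3 lower at an unadjusted p under 0.05, beside 7.13% of all genes, and 1 called lower by DESeq2. Over all members, DESeq2 called 5 lower and 5 higher in this comparison, beside 2.36% and 1.3% of all genes. Col4a1 and Col4a2 lie head to head and overlap at their starts (chr8:11198423-11312826 and chr8:11312805-11449287), so reads there cannot be told apart without strand. Col4a1 was at 31.6, 11.7 and 23.4 CPM on day 1, 42.7, 15.0 and 18.0 CPM on day 3 and 2.38 to 13.1 CPM on day 7 (-1.44 ± 0.51 for day 7 against day 3, edgeR adjusted p of 0.256). Col4a2 was at 54.9, 19.4 and 39.7 CPM, at 70.5, 31.7 and 49.1 CPM and at 15.9 to 24.6 CPM in the same order, with no overlap between days 3 and 7 (-1.25 ± 0.33, edgeR adjusted p of 0.111). Col4a5 averaged 19.7 ± 6.43, 13.1 ± 6.17 and 12.6 ± 4.82 CPM and Col4a6 5.13 ± 1.83, 5.53 ± 1.19 and 1.71 ± 1.49 CPM. Col4a3 had 60 reads, all on day 3, and Col4a4 was at most 3.58 CPM in any culture. Col18a1, the parent protein of endostatin in basement membranes, was among the highest collagens, with 519 ± 92.1, 287 ± 104 and 405 ± 89.0 CPM, and passed no test.

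To see whether levels reflected many cells or few, each cell was thinned to 200000 reads, which kept 175, 222 and 298 cells of days 1, 3 and 7 and left out 7, 6 and 3. A read of Col2a1 was present in 98.9%, 95.9% and 97.7% of these cells in the same order, of Col18a1 in 97.7%, 96.4% and 96.3%, and of Itgb1 in 94.9%, 94.6% and 96.6%. For Col2a1 the median cell held 326, 101 and 93 reads in the same order, so the typical cell held less, not only the sum. Col9a1 was present in 96.6%, 81.5% and 93.6% of cells, with medians of 102, 20 and 61.5 reads. Col9a3 was present in 96.0%, 73.0% and 83.6%, with medians of 84, 12 and 23.5 reads. Col11a2 was present in 65.7%, 14.0% and 31.9% of cells, and the top 5% of cells held 24.6%, 66.0% and 48.1% of its reads.

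Itga9 was present in 20.6%, 29.3% and 45.0% of the cells pooled by day. By culture its share was 26.9%, 16.5% and 21.1% on day 1 and 61.5%, 32.4%, 73.9%, 44.9% and 16% on day 7, so that day 7 culture 5 lay below every day 1 culture. Col6a1 was present in 33.1% of day 1 cells (exact 95% interval 26.2 to 40.6), in 5.41% of day 3 cells and in 0 of 298 day 7 cells, which allows a share of up to 1.01% by the limit of 3 counts and 1.23% by the exact 95% interval. On day 3 the top 5% of cells held 99.0% of the Col6a1 reads. Col13a1 was present in 12 of 175 day 1, 6 of 222 day 3 and 0 of 298 day 7 cells, and Itgb3 in 9, 3 and 1. On day 1 the top 5% of cells held 92.0% of the Col13a1 reads and 100% of the Itgb3 reads. The falls of these 2 genes thus rest on few cells, and their counting intervals do not cover the spread between cells. The median number of collagens with a read per cell was 11 to 13 in the day 1 cultures, 8 or 9 on day 3 and 8 to 10 on day 7. For laminins it was 4 or 5, 4 or 5 and 3 or 4, and for integrins 7 or 8, 6 or 7 and 5 to 7.

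**Figure D5:**
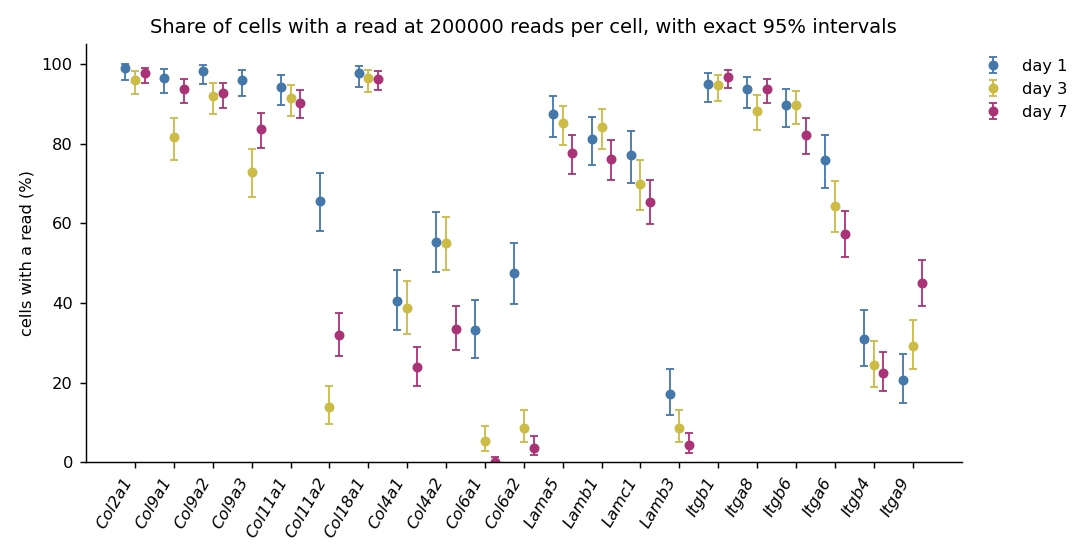
Percent of cells with at least 1 read of 21 members at 200000 reads per cell, with exact 95% binomial intervals, in 175 day 1, 222 day 3 and 298 day 7 cells; intervals cover counting error only. Col6a1 goes from 33.1% to 0, Itga9 from 20.6% to 45.0%, and Col2a1, Col18a1 and Itgb1 stay above 94% on all days.

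Chains of 1 protein were next looked at in the same cells, as a description. Of the cells with Col9a3, those that also had Col9a2 were 100.0% on day 1, 96.3% on day 3 and 95.2% on day 7, close to the 98.3%, 91.9% and 92.6% of all cells. The rank correlation of these 2 genes over the cells of a culture was 0.575 to 0.616 on day 1, 0.346 to 0.428 on day 3 and 0.154 to 0.489 on day 7, among cells of the same library preparation and depth. Of the cells with Col11a2, 97.4%, 93.5% and 93.7% had Col11a1, against 94.3%, 91.4% and 90.3% of all cells, while of the cells with Col11a1 67.9%, 14.3% and 33.1% had Col11a2. Col4a2 accompanied Col4a1 in 63.4%, 74.4% and 53.5% of cells with Col4a1, against 55.4%, 55.0% and 33.6% of all cells. Of the 19, 23 and 17 cells with Col4a6, 63.2%, 30.4% and 35.3% had Col4a5, against 42.3%, 28.4% and 24.8% of all cells.

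Lama3 was found in 1, 0 and 2 cells on days 1, 3 and 7. Lamb3 was found in 17.1%, 8.56% and 4.36% of cells. Of the cells with Itgb4, 79.6%, 75.9% and 70.1% also had Itga6, against 76.0%, 64.4% and 57.4% of all cells. Itgb1 was in 95.5%, 100.0% and 97.1% of the cells with Itga6 and in 94.9%, 94.6% and 96.6% of all cells. Col1a1 and Col1a2 were found together in 1 cell on day 1 and in 0 cells on days 3 and 7.

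Genes that act on or beside these proteins were taken from 4 lists, whose counts for day 7 against day 1 stand beside 3.56% of all genes lower and 3.55% higher, and for day 7 against day 3 beside 0.784% and 0.183%. For day 3 against day 1, edgeR called 0 genes of each list, beside 0.0115% of all genes. Tested were 24 genes of collagen processing, 19 other matrix proteins, 19 integrin partners and 16 proteases and inhibitors. In that order, 7, 5, 1 and 3 were lower and 0 higher at an unadjusted edgeR p under 0.05, beside 3.57% and 5.69% of all genes. DESeq2 called 2, 0, 0 and 0 lower and 0 higher, beside 0.561% and 0.922%. The median log2 fold changes were -0.43, -0.48, -0.03 and -0.02. Of 24 genes of collagen processing and crosslinking, 5 fell and 0 rose by day 7 against day 1, with a median of -0.66. Adamts2, which removes the N-terminal propeptide of procollagens, fell from 109 ± 8.73 to 28.8 ± 7.57 CPM (-1.92 ± 0.22, edgeR adjusted p of 0.00103) and also against day 3 (0.0216). P4ha2, a prolyl hydroxylase subunit, fell from 45.1 ± 11.8 to 11.9 ± 2.02 CPM, Plod1, a lysyl hydroxylase, from 162 ± 24.7 to 66.3 ± 16.4 CPM, and Plod3, another, from 379 ± 85.7 to 168 ± 46.5 CPM (edgeR adjusted p of 0.00263, 0.00501 and 0.0173).

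Of 19 other basement membrane and matrix proteins, 3 fell and 0 rose by day 7 against day 1, with a median of -0.88. Sparc, a collagen-binding protein, fell from 2725 ± 303 to 531 ± 319.8 CPM (-2.36 ± 0.36, edgeR adjusted p of 0.00325), Fbn2, a microfibril protein, from 209 ± 120.5 to 35.0 ± 11.9 CPM, and Tnc, a ligand of Itga9, from 408 ± 215 to 104 ± 40.2 CPM (0.00168 and 0.0307). Against day 3, Fbn2 and Egfl6, a ligand of Itga8, fell (edgeR adjusted p of 0.0426 and 0.0385). Of the 20 integrin partners and other matrix receptors, 19 were tested and 1 fell: Dst, a hemidesmosome linker, from 101 ± 40.5 to 30.7 ± 11.4 CPM (edgeR adjusted p of 0.0128).

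Of 21 matrix proteases and inhibitors, 16 were tested, 4 fell and 2 rose by day 7 against day 1. Plaur, the urokinase receptor, fell from 17.9 ± 9.14 to 1.20 ± 0.449 CPM and Timp2, an inhibitor of matrix metalloproteinases, from 196 ± 33.5 to 70.2 ± 17.9 CPM (edgeR adjusted p of 0.00193 and 0.00283). Adam10, a membrane protease, fell from 235 ± 70.4 to 108 ± 15.4 CPM, and Plat, tissue plasminogen activator, rose from 182 ± 44.0 to 449 ± 143 CPM (edgeR adjusted p of 0.0196 and 0.0144). Against day 3, Plaur and Timp2 fell and Plat rose (edgeR adjusted p of 0.0308, 0.00931 and 0.0418).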

How the data were processed

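The collagens, laminins and integrins, and the lists beside them, were chosen with earlier results of these data known. The deposited values are expected counts per gene and cell that the authors estimated from SmartSeq2 reads. STAR 2.5.3a, RSEM 1.3.0 and mm10 (GRCm38) are listed per the submitters' processing notes, and the annotation release and strand setting are not given in the sources used here. Of the non-zero values, 10.6% were not whole, and all were rounded. Cells needed at least 50000 reads on genes, 1500 genes and at most 20% mitochondrial reads, which removed 57. Counts were summed per culture and tested in 1 fit over 11 cultures with edgeR 4.0.16 (TMM, filterByExpr, quasi-likelihood test, Benjamini-Hochberg over 17466 genes), after a test on simulated data. Called members, the 3 most abundant of each family, fixed protein groups and pairs, and up to 4 called genes per other list are named. The values of 1 member are not reported here. Itga1, Itgav and Col16a1 were added after their values were seen. Coordinates and exon lengths come from GENCODE M21 (GRCm38), matched by identifier for all 83 members and in the same version for 70. Reads had no molecular identifiers, so intervals and limits cover counting error only. Alternatives covered DESeq2 1.42.0, scaling, filters, thinning, deposited table, replicate number and single cultures.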

Additional observations from a re-analysis of the deposited data

Results flagged for a closer look

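Among the 5 day 7 cultures, 1 culture lay far from the other 4, by the gap to the nearest divided by the whole range (limit 0.71), for 12 of the 60 tested members. Chance sets about 1 in 20 groups of normal values apart in this way, but 15.0% of all 17315 genes with a day 7 read met the same limit, and a gene with reads in 1 culture alone, such as Col13a1 and Itgb3, always meets it. In day 7 culture 5, Col12a1 was at 4.18 CPM (0.0660 to 0.957 in the others), Col20a1 at 2.51 CPM (0 to 0.307) and Col27a1 at 85.1 CPM (38.4 to 49.6). Culture 5 is the 1 day 7 culture in the second deposited table, and it had the highest median mitochondrial share (6.76% of reads) and the fewest median genes per cell (5681) of all 11 cultures. The part of these in its values was not tested. In culture 3, Lamb1 was lowest at 61.4 CPM (111 to 128 in the others), Col23a1 was at 2.10 CPM (0 to 0.279), and Col13a1 and Itgb3 were at 0.0542 and 0.0181 CPM where the other 4 were at 0. In culture 2, Col22a1 was at 2.90 CPM (0 to 0.253) and Itga11 at 12.4 CPM (2.06 to 4.77). In culture 1, Col7a1 was at 2.48 CPM (0 to 0.633) and Itgb8 at 13.8 CPM (0.903 to 2.36), and in culture 4 Col4a4 was at 3.46 CPM (0 to 0.806).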

How the results depend on the processing

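The alternatives were run for 30 fold changes, those of members called by edgeR or DESeq2 or near the threshold, and not for the other named members. None of these 30 turned its direction in 748 alternatives, of which 554 kept their side of the threshold, 57 moved past it and 137 fell short of it. For day 3 against day 1, where 0 members were called, DESeq2 called 7, no filter on low counts 4, thinned cells 3, a fit of only the 2 days 3 and the second table alone 4. Leaving out 1 culture gave 0 to 2. For day 7 against day 1, with 13 called, the first table alone gave 1 and the second 2, and leaving out 1 culture gave 5 to 13. For day 7 against day 3, with 4 called, DESeq2 gave 10 (5 lower and 5 higher), the table as a term 1, either table alone 0, a fit of only the 2 days 1, and the cells without hair cell genes 2, while leaving out 1 culture gave 1 to 4. In a fit within 1 table, a day with a lone culture is assumed to vary like the others, and fewer cultures enter. Day and table were mixed unevenly. The first table holds day 1 culture 1 and day 7 cultures 1 to 4. The second holds day 1 cultures 2 and 3 and day 7 culture 5. For day 7 against day 1, some log2 fold changes were larger in the first, such as Col12a1 (-6.09 and -0.950) and Col27a1 (-1.71 and -0.448). Others were larger in the second: Col5a3 (-3.53 and -12.7), Col13a1 (-6.54 and -10.2), Col6a1 (-11.4 and -12.4) and Itgb3 (-7.23 and -9.30). With the replicate number as a block, 3, 12 and 2 members were called in the 3 comparisons, 10 of the 12 and 1 of the 2 being among those called without it. Whether the numbers pair the cultures is not said by the labels and cannot be told from these values. Over 9 same-numbered pairs, deviations from the day means correlated at -0.01 to 0.061. Of 18 checks, 12 were best with their own number, among them all those between days 1 and 3. The settings without mesenchyme or hair cell gene cells were chosen after seeing the data. Depth limits the members with few reads, such as Col13a1 and Itgb3, to wide counting intervals.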
